A study of Mus musculus with 9 samples.

Results

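Expression of 10 genes was examined, the AP-1 genes *Fos*, *Fosb*, *Fosl1*, *Jun*, *Junb*, *Jund* and *Atf3* and the immediate early genes *Egr1*, *Ier2* and *Ier3*, out of 55471 gene IDs with read counts from 9 RNA-seq libraries. All were made from embryoid bodies (EBs), aggregates in which mouse embryonic stem (ES) cells differentiate. The 10 genes were chosen by name with results of these data already known, so their own differences between groups, and the calls read from the fits over all genes, are given as a description, with no p, and support nothing by themselves. All 10 symbols mapped to an Ensembl ID of the count table. The 3 groups of 3 libraries were EBs of the parental E14 ES cell line (labelled WT_EB), EBs of a *Tnfaip2*-/- derivative of that line (KO_EB) and *Tnfaip2*-/- EBs given a supplement (PA/PC) of palmitic acid and palmitoyl-L-carnitine, 8 µM of each (KO_EB_PAPC). All EBs were harvested after 3 days of in vitro differentiation that followed 3 days of EB formation in hanging drops. The *Tnfaip2*-/- cells were 1 clone made with CRISPR-Cas9, so an effect of the gene and of the clone cannot be told apart. By the study's methods the supplemented EBs were also formed in MEF medium, whereas ES cell medium is given for EB formation without supplement, so the lipids and the medium of the first days cannot be told apart either. The study gives a vehicle control for the *Tnfaip2*-/- EBs without PA/PC, while the sample titles name no vehicle. These EBs are called untreated below. No library of WT EBs with PA/PC was analysed here.

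AP-1 is a dimeric transcription factor made of a JUN protein paired with another JUN, a FOS or an ATF family protein, and it binds short DNA sites in promoters and enhancers. Many of its genes are immediate early genes, which are transcribed within minutes of a growth factor, stress or adhesion signal without new protein synthesis and whose RNAs are usually short-lived. Signals reach them through MAP kinases, the serum response factor SRF with its ternary complex partners, and CREB. In ES cells MAP kinase signalling is one of the pathways that drive exit from the pluripotent state.

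Depth was even, with 27362913 to 28914312 counts per library. *Tnfaip2* itself was near the detection floor in all groups (6 to 16 counts in WT, 5 to 8 in *Tnfaip2*-/- and 14 to 25 in PA/PC libraries), and since the allele carries a frameshift its RNA level does not check the labels. Markers that were examined for the cell types of EBs differed widely between groups. The summed CPM (counts per 1000000 counts of the library) of 4 pluripotency genes ranged from 1830 to 1840 in WT, from 2730 to 2750 in *Tnfaip2*-/- and from 1720 to 1750 in PA/PC libraries. For 3 ectoderm genes the ranges were 124 to 128, 37.1 to 40.8 and 203 to 206, for 4 endoderm genes 78.1 to 82.1, 42.4 to 45.2 and 5.47 to 6.65, and for 3 mesoderm genes 3.38 to 4.64, 6.23 to 7.26 and 15 to 17. The mesoderm genes moved apart, with *T* at 1.91, 0.292 and 15.5 CPM and *Kdr* at 1.94, 6.42 and 0.519 CPM in WT, *Tnfaip2*-/- and PA/PC EBs. Fibroblast genes summed to 8.86 to 11 CPM in all groups, and of 3 blood genes *Hbb-bt* was at 0 in every library. In a bulk sample, fewer cells of a type and less RNA per cell cannot be told apart, and the part of cell composition in the differences below was not tested.

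The promoters of 3 members are shown because their genes followed 3 different courses: *Fos* had the widest rise with PA/PC, *Jun* moved least, and *Atf3* moved the opposite way. Each is the RefSeq window on GRCm38.p6 of 250 bases before to 50 bases after the transcription start, written 5′ to 3′ on the gene's strand. Capitals mark the motifs that were found. The windows lie at chr12:85473640-85473939 (plus strand), chr4:95052173-95052472 (minus strand) and chr1:191183284-191183583 (minus strand), the last at a start inside the span of *Atf3*.
Fos: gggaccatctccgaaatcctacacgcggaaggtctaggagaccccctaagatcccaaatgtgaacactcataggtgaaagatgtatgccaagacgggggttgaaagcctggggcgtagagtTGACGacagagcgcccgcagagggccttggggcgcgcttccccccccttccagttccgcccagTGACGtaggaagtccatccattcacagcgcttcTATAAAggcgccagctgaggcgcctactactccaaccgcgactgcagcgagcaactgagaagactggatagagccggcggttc
Jun: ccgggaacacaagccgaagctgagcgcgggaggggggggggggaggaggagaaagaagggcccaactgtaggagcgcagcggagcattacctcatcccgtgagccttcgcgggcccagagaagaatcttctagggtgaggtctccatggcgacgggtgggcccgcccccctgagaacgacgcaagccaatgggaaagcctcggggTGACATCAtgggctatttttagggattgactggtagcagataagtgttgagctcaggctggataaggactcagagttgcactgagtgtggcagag
Atf3: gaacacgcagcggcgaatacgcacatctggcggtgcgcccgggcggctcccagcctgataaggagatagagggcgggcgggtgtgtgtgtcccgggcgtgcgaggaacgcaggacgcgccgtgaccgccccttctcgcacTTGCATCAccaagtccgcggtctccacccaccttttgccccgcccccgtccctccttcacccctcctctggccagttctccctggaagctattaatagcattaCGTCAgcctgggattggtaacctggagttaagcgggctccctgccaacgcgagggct

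A set of 9 motifs, chosen with the expression results known, was searched on both strands in these windows and in those of *Fosb*, *Junb*, *Jund* and *Ier3*, 7 members in all (no window for *Fosl1*, *Egr1* and *Ier2*). The *Jund* window (chromosome 8, 70697489 to 70697788) ended before the annotated start of the counted gene at 70698949. It therefore did not touch that gene, and its lack of motifs may not describe the *Jund* promoter. The letters TGACG, a part of the cAMP response element (CRE) that CREB and ATF proteins bind, were in 4 of the 7 windows and in 20.8% of all 32851 promoter windows. They stood at positions -129 and -66 from the start in *Fos*, at -106 in *Junb*, at -60 in *Fosb* and at -7 in *Atf3*. The JUN-type AP-1 site TGACATCA was in the *Jun* window alone, at -45, and in 3.62% of all windows. The letters TGATGNAA, a core of the C/EBP-ATF element that ATF4 binds in amino acid response genes, were in the *Atf3* window alone, on the minus strand at -110, and in 3.97% of all windows. The TATA box letters TATAAA were in *Fos* at -33 and in *Junb* at 0, against 13.6% of all windows. The positions in *Junb* are counted from the RefSeq start that set its window (chromosome 8, 84978699 to 84978998). That start lay upstream of the annotated start of the counted gene at 84978718. The TATAAA letters of *Junb* thus lay before the annotated start and not at it. The full CRE (TGACGTCA, 1.79% of all windows), the consensus AP-1 site (TGACTCA, 5.20%), the ETS site (CCGGAAGT, 3.89%), the EGR site (GCGTGGGCG, 0.612%) and the CArG box of SRF (1.63%) were in none of the 7 windows. A match is a description of these letters and not of a bound site. A motif not found, such as the CArG box, was absent from these windows only, and sequence farther from the start was not searched. Whether *Fos* or another member has such a site outside its window was not tested.

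*Fos* (ENSMUSG00000021250, chromosome 12, 85473890 to 85477273, plus strand) encodes the founding partner of JUN in AP-1 and showed the widest range of all members. Its level was 7.51, 6.15 and 7.24 CPM in the WT libraries, 3.08, 3.00 and 2.80 CPM in the *Tnfaip2*-/- libraries and 50.8, 49.7 and 45.7 CPM in the *Tnfaip2*-/- libraries with PA/PC. No library of one group overlapped with another, and the order was *Tnfaip2*-/-, WT, PA/PC. The log2 fold change was -1.23 ± 0.109 (SE, n = 3 per group) in *Tnfaip2*-/- against WT EBs, 4.21 ± 0.0725 in PA/PC-treated against untreated *Tnfaip2*-/- EBs, which is 18.5-fold, and 2.97 ± 0.0665, or 7.83-fold, in PA/PC-treated *Tnfaip2*-/- against WT EBs. The level with PA/PC thus lay far above the WT level rather than at it.

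*Fosb* (ENSMUSG00000003545, chromosome 7, 19302696 to 19310051, minus strand), which encodes another FOS protein, was scarce without PA/PC. The WT libraries held 7, 11 and 9 counts, the *Tnfaip2*-/- libraries 14, 13 and 13, and the PA/PC libraries 104, 110 and 118. It was the member whose level was not lower in *Tnfaip2*-/- than in WT EBs, with a log2 fold change of 0.53 ± 0.343 that was not called although the libraries did not overlap. With PA/PC it was 9.51-fold above untreated *Tnfaip2*-/- EBs (log2 fold change 3.25 ± 0.187) and 13.7-fold above WT EBs (3.78 ± 0.202), the highest ratio to WT among the members.

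*Fosl1* (ENSMUSG00000024912, chromosome 19, 5447547 to 5455946, plus strand) encodes FRA1, a FOS protein of adherent and migrating cells. It had 4, 2 and 11 counts in the WT libraries, 1 count in each *Tnfaip2*-/- library, and 1, 2 and 1 counts with PA/PC. These values lie at or near the floor of the depth, the low-count filter removed the gene from the main test of every comparison, and no fold is given. Of its exon sequence 57.2% overlaps the antisense gene *Ccdc85b* (26.5, 18.3 and 36.7 CPM in WT, *Tnfaip2*-/- and PA/PC EBs), and reads that overlapped both genes were not counted.

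*Jun* (ENSMUSG00000052684, chromosome 4, 95049034 to 95052222, minus strand), the JUN protein that can form AP-1 with itself, moved least of the members over the 3 groups. Its levels were 17.7, 19.2 and 18.7 CPM in WT, 15.8, 14.1 and 14.4 CPM in *Tnfaip2*-/- and 18.7, 19.7 and 17.7 CPM in PA/PC libraries. The *Tnfaip2*-/- libraries were lowest and the WT and PA/PC libraries overlapped. The log2 fold change was -0.33 ± 0.0609 in *Tnfaip2*-/- against WT EBs and 0.51 ± 0.0631 with PA/PC against without. The difference of 0.18 ± 0.0597 between PA/PC-treated *Tnfaip2*-/- and WT EBs was called, but it shrank to 0.013 and was not called with library totals in place of TMM factors, and it was not called without PA/PC replicate 2 (0.14).

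*Junb* (ENSMUSG00000052837, chromosome 8, 84974484 to 84978718, minus strand), an AP-1 subunit that often restrains JUN, followed the course of *Fos* over a smaller range. It stood at 18.9, 20.2 and 19.7 CPM in WT, at 11.7, 9.99 and 10.7 CPM in *Tnfaip2*-/- and at 32.3, 38.2 and 36.8 CPM in PA/PC libraries, with no overlap between groups. The log2 fold change was -0.86 ± 0.0644 in *Tnfaip2*-/- against WT EBs, 1.90 ± 0.0651 (3.72-fold) with PA/PC against without, and 1.03 ± 0.0589 (2.04-fold) in PA/PC-treated *Tnfaip2*-/- against WT EBs. Of its exon sequence 7.52% overlaps *Prdx2*, whose level was 299, 179 and 479 CPM in WT, *Tnfaip2*-/- and PA/PC EBs, the same order of groups. Reads that overlapped annotated exons of both genes were not counted for either. The libraries do not keep strand, so *Prdx2* RNA beyond its annotated exons could not be told apart from *Junb*. Its part in the *Junb* counts was not tested.

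*Jund* (ENSMUSG00000071076, chromosome 8, 70698949 to 70700616, plus strand), the JUN gene that is expressed steadily in most cells, was the most abundant of the AP-1 genes among the members. Its levels were 85.9, 103 and 102 CPM in WT, 61.1, 58.7 and 62.2 CPM in *Tnfaip2*-/- and 95.6, 110 and 104 CPM in PA/PC libraries. The *Tnfaip2*-/- libraries were again the lowest, and WT and PA/PC libraries overlapped. The log2 fold change was -0.68 ± 0.0451 in *Tnfaip2*-/- against WT EBs and 0.93 ± 0.0395 with PA/PC against without. The difference from WT to PA/PC-treated *Tnfaip2*-/- EBs was 0.25 ± 0.0519, and it was 0.086 and not called with library totals. Annotated exons of *Gm11175* cover 52.6% of the *Jund* exons, and reads that overlapped both genes were not counted. The CPM of *Jund* thus leave out reads from that part. For the same reason the 0 counts of *Gm11175* in every library do not show that it was silent.

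*Atf3* (ENSMUSG00000026628, chromosome 1, 191170296 to 191218039, minus strand) encodes a stress-induced ATF protein that can pair with JUN and that is also induced by ATF4 in the integrated stress response. It was the one member that was lower with PA/PC. Its levels were 15.2, 16.3 and 15.1 CPM in WT, 7, 6 and 6.4 CPM in *Tnfaip2*-/- and 1.33, 1.21 and 1.97 CPM in PA/PC libraries. The 3 groups did not overlap and fell in the order WT, *Tnfaip2*-/-, PA/PC. The log2 fold change was -1.26 ± 0.0749 in *Tnfaip2*-/- against WT EBs, -1.93 ± 0.141 with PA/PC against without and -3.20 ± 0.117 in PA/PC-treated *Tnfaip2*-/- against WT EBs, where the level was 0.109 times that of WT. The PA/PC libraries held 37, 33 and 55 counts, and with a coefficient of variation (CV) of 27.4% this was the widest spread of a tested member in that group.

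*Egr1* (ENSMUSG00000038418, chromosome 18, 34859823 to 34864984, plus strand), a zinc finger transcription factor and a direct target of the ERK pathway, rose strongly with PA/PC. It stood at 25.5, 25.2 and 25.8 CPM in WT, 20.6, 20.5 and 21.1 CPM in *Tnfaip2*-/- and 108, 102 and 104 CPM in PA/PC libraries. The replicates were close together, with a CV of 1.09% to 2.63%, and the groups did not overlap. The log2 fold change was -0.30 ± 0.05 in *Tnfaip2*-/- against WT EBs, 2.50 ± 0.0407 (5.66-fold) with PA/PC against without, and 2.2 ± 0.0401 (4.6-fold) in PA/PC-treated *Tnfaip2*-/- against WT EBs.

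*Ier2* (ENSMUSG00000053560, chromosome 8, 84661331 to 84662852, minus strand), a small nuclear protein gene, was the most abundant member. It had 181, 204 and 200 CPM in WT, 166, 155 and 156 CPM in *Tnfaip2*-/- and 220, 239 and 235 CPM in PA/PC libraries. The groups did not overlap but lay close, with log2 fold changes of -0.29 ± 0.0336 in *Tnfaip2*-/- against WT EBs, 0.71 ± 0.0316 with PA/PC against without and 0.41 ± 0.0377 in PA/PC-treated *Tnfaip2*-/- against WT EBs. *Ier3* (ENSMUSG00000003541, chromosome 17, 35821684 to 35822923, plus strand), which encodes an inhibitor of apoptosis that also acts on ERK signalling, had 29.1, 27.4 and 28.2 CPM in WT, 15.2, 14.8 and 15.5 CPM in *Tnfaip2*-/- and 34.8, 35.7 and 34.5 CPM in PA/PC libraries. Its log2 fold changes were -0.90 ± 0.0533, 1.37 ± 0.0521 and 0.47 ± 0.0469 in the same order. Both genes thus kept the order *Tnfaip2*-/-, WT, PA/PC that was seen for *Fos*, *Junb* and *Egr1*.

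**Figure D1:**
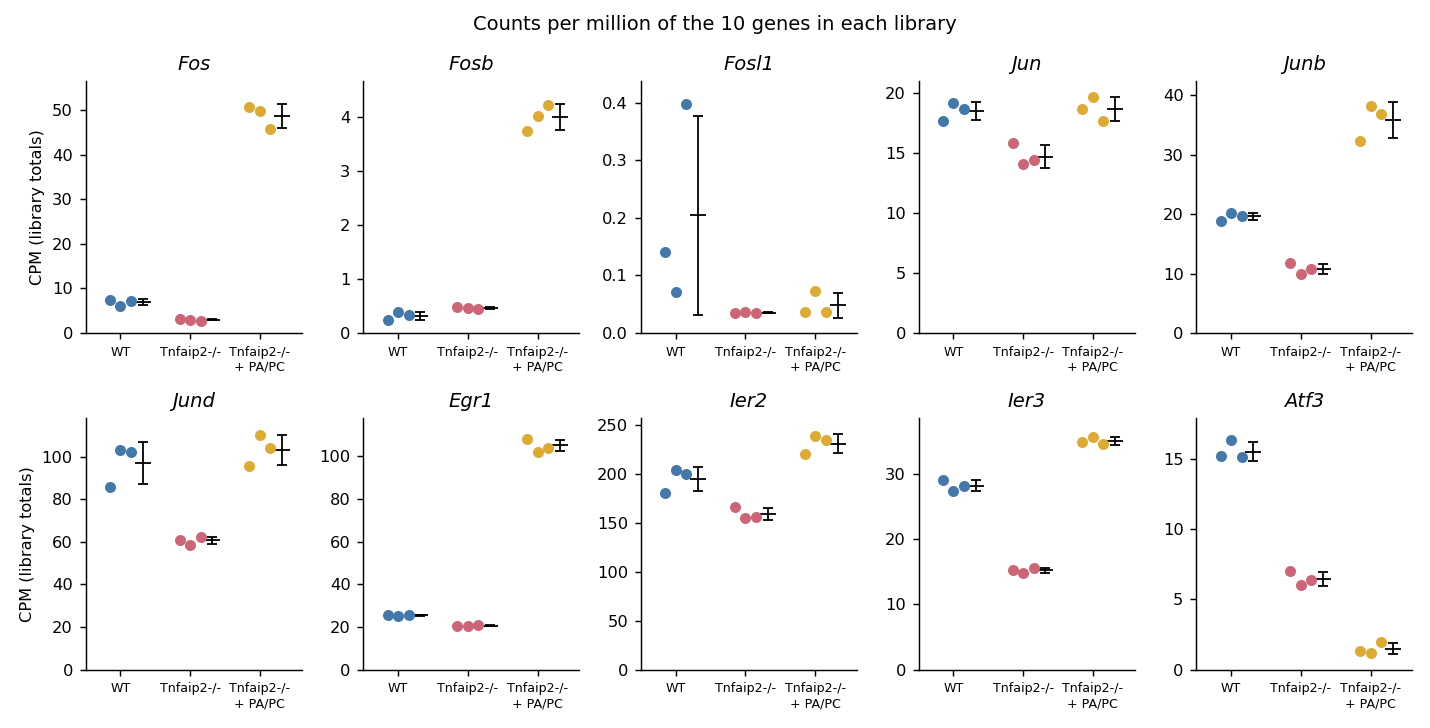
CPM by library totals (y axes, each from 0) of the 10 genes in the 9 libraries; each point is a library, and the black bar beside each group of 3 is the mean ± SD. *Fos*, *Fosb* and *Egr1* of the PA/PC libraries lie far above both other groups, *Atf3* runs the opposite way from 15.5 to 1.5 CPM, and *Jun* and *Jund* of WT and PA/PC libraries overlap.

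For counts over the members, the first comparison set EBs of the *Tnfaip2*-/- clone beside WT EBs. In *Tnfaip2*-/- against WT EBs, 9 of the 10 members were tested, 0 were called higher and 8 lower in edgeR's quasi-likelihood test at an adjusted p under 0.05, with *Fosb* not called. Over all 17355 genes tested, 36.8% were called higher and 37.1% lower. At a tested minimum fold of 2, *Atf3* alone was called lower (background 3.79%) and 0 members were called higher (5.36%). The libraries of the 2 groups did not overlap for *Fosb*, which was higher (37.3% of all genes), and for the other 8 tested members, which were lower (38.0%). The median log2 fold change of the 9 members was -0.676 against -0.006 over all genes tested.

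The second comparison set PA/PC-treated beside untreated *Tnfaip2*-/- EBs, which by the study's methods also differed in the medium of EB formation. With PA/PC against without, 8 members were called higher (39.6% of 17167 genes tested) and *Atf3* lower (42.2%). At the minimum fold of 2, 5 were still called higher, *Fos*, *Fosb*, *Junb*, *Egr1* and *Ier3* (6.26%), and *Atf3* lower (14.4%). The same 8 members and *Atf3* did not overlap between the groups (31.4% of all genes higher, 50.7% lower). Here the median of the 9 members was 1.372 against -0.017 over all genes tested.

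The third comparison set PA/PC-treated *Tnfaip2*-/- EBs beside WT EBs. Of the members, 8 were called higher (34.2% of 16655 genes tested) and *Atf3* lower (36.4%). At the minimum fold of 2, *Fos*, *Fosb* and *Egr1* were called higher, where 0.961% of all genes were, and *Atf3* lower (7.05%). Libraries did not overlap for 6 higher members (22.5%) and for *Atf3* (50.6%), while *Jun* and *Jund* overlapped. In all 3 comparisons overlap was read from CPM by library totals, whereas the calls used TMM scaling, so the rules can differ. The median over the members was 0.474 against -0.017 over all genes tested. Because the members were chosen with these contrasts known, nothing is read from these counts, and since each pair of comparisons shares a group of libraries, the 3 are not independent of each other. Scaling by library totals lowered the median of all genes to -0.184 with PA/PC against without and to -0.182 in PA/PC-treated *Tnfaip2*-/- against WT EBs, and no member changed direction under it.

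**Figure D2:**
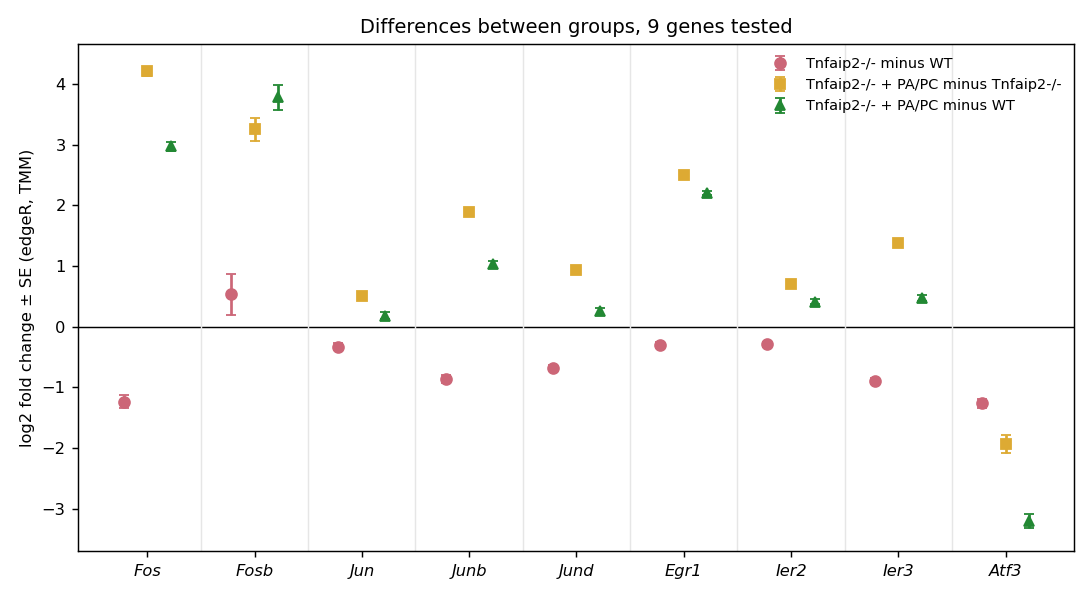
Log2 fold change ± SE (y axis) of the 9 tested genes in the 3 comparisons, each fitted on its own 6 libraries; points above 0 are higher in the group named first. All genes but *Fosb* lie below 0 in *Tnfaip2*-/- minus WT, and all but *Atf3* lie above 0 in both comparisons with PA/PC, from 0.178 for *Jun* to 4.21 for *Fos*.

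The chromosomes that hold tested members also differed in the median log2 fold change of their genes. The median log2 fold change of the genes tested on chromosome 8, which holds *Junb*, *Jund* and *Ier2*, was -0.235 in *Tnfaip2*-/- against WT EBs, 0.434 with PA/PC against without and 0.140 in PA/PC-treated *Tnfaip2*-/- against WT EBs. For chromosome 12 (*Fos*) it was -0.181, 0.322 and 0.110, for chromosome 17 (*Ier3*) -0.238, 0.324 and 0.081, and for chromosome 4 (*Jun*) -0.124, 0.220 and 0.067. In the first 2 of these comparisons the differences of *Ier2* and *Jun* lay nearest to the medians of their chromosomes among the members, and those of *Fos* lay far outside. The medians on chromosomes 1 (*Atf3*) and 7 (*Fosb*) were -0.028 and 0.026 in *Tnfaip2*-/- against WT EBs and 0.080 and -0.085 with PA/PC against without. Whether these medians have a part in the members' differences was not tested.

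The makeup of AP-1 RNA was compared per kilobase of countable exon, the exon sequence not shared with another gene, since only such levels can be set side by side between genes. In WT EBs the members stood in the order *Ier2* (128 ± 8.11 CPM per kb, SD), *Jund* (123 ± 12.2), *Ier3* (25.0 ± 0.790), *Junb* (9.23 ± 0.306), *Atf3* (7.22 ± 0.313), *Jun* (6.26 ± 0.256), *Egr1* (5.69 ± 0.0622) and *Fos* (2.96 ± 0.308), and then *Fosl1* (0.234 ± 0.198) and *Fosb* (0.0517 ± 0.0119). Of neighbours in this order, *Ier2* and *Jund* and the 2 last genes did not differ beyond 1 SD of each. In *Tnfaip2*-/- EBs *Atf3* (3.00 ± 0.235) lay below *Egr1* (4.63 ± 0.0748), and *Junb* (5.07 ± 0.393), *Jun* (4.98 ± 0.313) and *Egr1* lay within their spreads.

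With PA/PC the order changed in the middle. *Egr1* (23.3 ± 0.613 CPM per kb) and *Fos* (20.7 ± 1.15) stood after *Ier3* (30.9 ± 0.581) and above *Junb* (16.8 ± 1.45) and *Jun* (6.32 ± 0.339), and *Atf3* (0.698 ± 0.191) was down at the level of *Fosb* (0.641 ± 0.0394), from which it did not differ beyond the spread. *Fos* thus moved from the eighth place in WT to the fifth.

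Summed per kilobase over the 7 FOS and JUN genes (*Fosl2* included), AP-1 RNA was 142 ± 12.4 CPM per kb in WT, 88.3 ± 2.63 in *Tnfaip2*-/- and 175 ± 10.5 in PA/PC libraries. *Jund* made up 86.1% ± 1.0 of it in WT, 86.8% ± 0.666 in *Tnfaip2*-/- and 74.2% ± 0.907 in PA/PC libraries. The share of *Fos* was 2.10% ± 0.382, 1.42% ± 0.0907 and 11.9% ± 1.08, and that of *Junb* 6.51% ± 0.404, 5.73% ± 0.328 and 9.58% ± 0.347. The ratio of FOS family to JUN family RNA was 0.0346, 0.0249 and 0.0310 in the WT libraries, 0.0189, 0.0193 and 0.0169 in the *Tnfaip2*-/- libraries and 0.160, 0.138 and 0.134 in the PA/PC libraries. The 3 groups did not overlap in this ratio, and a permutation test of 3 against 3 libraries cannot give an exact p below 0.1, so it was not tested. The ratio is of RNA, and protein was not measured in these libraries.

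**Figure D3:**
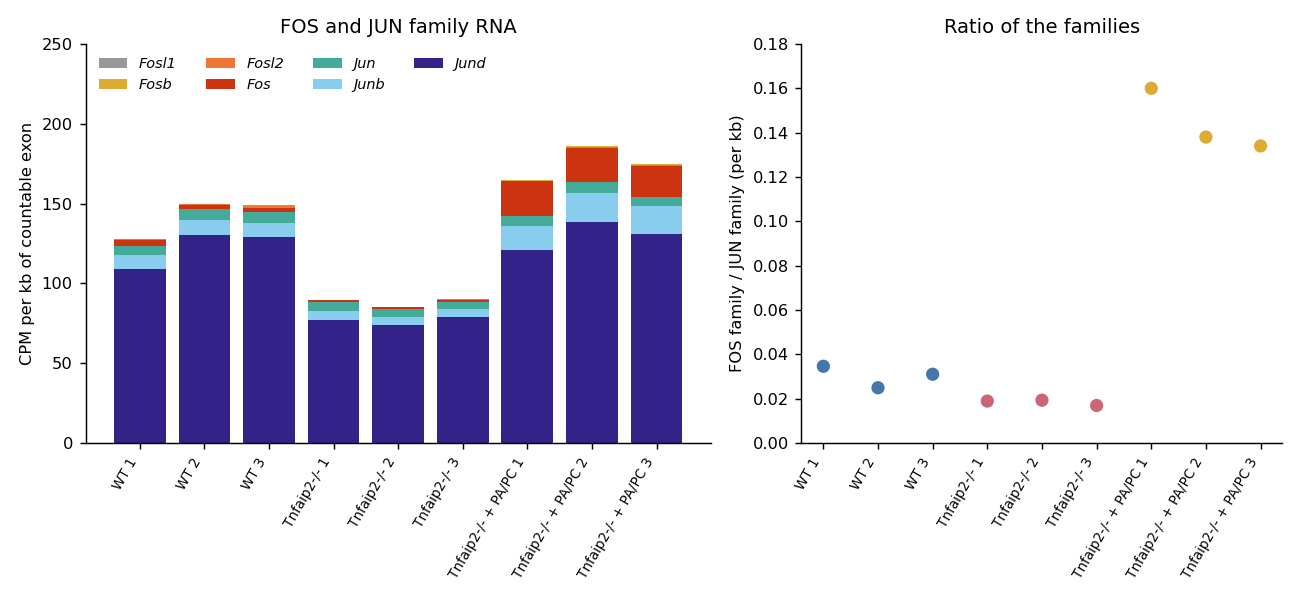
Left, RNA of the 7 FOS and JUN family genes in CPM per kb of countable exon (y axis from 0), stacked by gene for each of the 9 libraries; right, the ratio of FOS to JUN family RNA in the same libraries, with colours for the groups. *Jund* fills most of every bar, the *Tnfaip2*-/- bars are the lowest, and the *Fos* segment is wide with PA/PC, where the ratio lies between 0.134 and 0.160.

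Replicates of a group varied little. Among the tested members the CV of CPM lay between 1.09% (*Egr1*) and 23.0% (*Fosb*) in WT, between 1.62% (*Egr1*) and 7.83% (*Atf3*) in *Tnfaip2*-/- and between 1.88% (*Ier3*) and 27.4% (*Atf3*) in PA/PC libraries. For the low genes the counts alone set much of this, since counting error by itself gives a CV of 33.3% for *Fosb* in WT EBs and 15.5% for *Atf3* with PA/PC. For *Jund* the CV in WT EBs was 9.95% against 1.92% from counting, with WT replicate 1 the lowest library, as it also was for *Ier2*. One library did not lead for all genes, since the highest WT library was replicate 2 for 6 of the 9 tested members and the highest PA/PC library was replicate 2 for 5.

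The genes that act with the members were read from the same fits in 8 lists of 117 genes in all, of which 108, 108 and 109 were tested in the 3 comparisons. The lists were drawn up with earlier results of these data known. In *Tnfaip2*-/- against WT EBs 38 list genes were higher and 58 lower, where 36.8% and 37.1% of all genes were. With PA/PC against without 51 were higher and 44 lower (39.6% and 42.2%), and in PA/PC-treated *Tnfaip2*-/- against WT EBs 55 were higher and 34 lower (34.2% and 36.4%). With library totals the last 2 of these were 43 higher and 53 lower, and 45 higher and 49 lower, so the balance of both turned over with the scaling.

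Of 10 other genes tested whose proteins pair in AP-1, 3 were higher and 7 lower in *Tnfaip2*-/- against WT EBs (median -0.233), where 36.8% and 37.1% of all genes were. With PA/PC against without 4 were higher and 2 lower (0.091), against 39.6% and 42.2%, and in PA/PC-treated *Tnfaip2*-/- against WT EBs 3 were higher and 5 lower (-0.275), against 34.2% and 36.4%. *Fosl2*, which encodes FRA2, was 8.63 ± 0.119 CPM in WT, 2.08 ± 0.219 in *Tnfaip2*-/- and 5.30 ± 0.413 in PA/PC libraries, so that it rose with PA/PC (log2 fold change 1.51 ± 0.127, edgeR adjusted p = 2.35e-13) and stayed below WT (-0.54 ± 0.0892). *Maff*, a small MAF protein, followed the order of *Junb*, with 19.2, 10.3 and 32 CPM. *Maf* fell in *Tnfaip2*-/- EBs (log2 fold change -1.56 ± 0.121) and was higher with PA/PC than without (0.85 ± 0.143). *Jdp2*, a repressor that pairs with JUN and binds the sites of AP-1, was 30.8, 26.7 and 1.70 CPM and had the largest fall of the list with PA/PC (log2 fold change -3.80 ± 0.0957). With PA/PC *Jdp2* and *Atf3* were lower and *Fos* higher than without. In *Tnfaip2*-/- against WT EBs, however, *Jdp2* (log2 fold change -0.208 ± 0.0487), *Atf3* and *Fos* were all lower. A link between these genes was not tested.

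The other immediate early genes moved in both directions. Of 23 tested, 9 were higher and 12 lower in *Tnfaip2*-/- against WT EBs (36.8% and 37.1% of all genes), and 12 were higher and 10 lower with PA/PC against without (39.6% and 42.2%). In PA/PC-treated *Tnfaip2*-/- against WT EBs 12 of 24 were higher and 8 lower (34.2% and 36.4%). *Ier5*, of the same naming family as *Ier2*, went the way of *Junb* with 16.6, 10.7 and 24.8 CPM in WT, *Tnfaip2*-/- and PA/PC EBs. Others that respond to the same kinds of signal went the opposite way. The nuclear receptor gene *Nr4a1* stood at 38.3, 63.2 and 22.3 CPM and fell by 1.34 ± 0.0473 (log2) with PA/PC. *Arc* fell by 1.61 ± 0.0660 with PA/PC, to 8.01 CPM, and *Csrnp1* by 1.18 ± 0.0395, after a rise in *Tnfaip2*-/- EBs of 1.3 ± 0.0383. *Dusp1*, a MAP kinase phosphatase gene that is itself an immediate early gene, was 41.8, 71.7 and 52.8 CPM.

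Upstream genes differed in both directions. Of the 26 genes of SRF, its partners and the MAP kinases, 11 were higher and 10 lower in *Tnfaip2*-/- against WT EBs (36.8% and 37.1% of all genes). With PA/PC against without 12 were higher and 12 lower (39.6% and 42.2%). In PA/PC-treated *Tnfaip2*-/- against WT EBs 12 were higher and 6 lower (34.2% and 36.4%). The one gene of these called at the minimum fold of 2 was *Elk3*, an SRF partner, lower with PA/PC (-1.27 ± 0.078) and lower than in WT EBs (-1.45 ± 0.0748), and *Srf* itself was higher with PA/PC (0.67 ± 0.0417); both were chosen for mention after their values were seen. The largest fall in *Tnfaip2*-/- EBs among those named was of *Map2k7*, a kinase of JNK (log2 fold change -0.67 ± 0.0358), which was higher with PA/PC (1.01 ± 0.0370) but has 35.2% of its exons overlapped by another gene. *Creb1*, whose protein binds CRE sites, was 99.4, 74.9 and 138 CPM in WT, *Tnfaip2*-/- and PA/PC EBs. *Nras*, which encodes a RAS protein upstream of ERK, rose with PA/PC by 0.73 ± 0.0272 (log2), while the SRF partner *Elk1* was lower (-0.74 ± 0.0418).

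Many feedback inhibitors of the MAP kinase pathway are transcribed when ERK is active. Of 15 tested, 9 were higher and 4 lower with PA/PC against without (median 0.504), where 39.6% and 42.2% of all genes were. In PA/PC-treated *Tnfaip2*-/- against WT EBs 12 were higher and 2 lower (0.559), against 34.2% and 36.4%. In *Tnfaip2*-/- against WT EBs 5 were higher and 6 lower (0.059), against 36.8% and 37.1%. The ERK phosphatase gene *Dusp6* was 158 CPM in WT, 85.2 in *Tnfaip2*-/- and 207 in PA/PC EBs, with a log2 fold change with PA/PC of 1.45 ± 0.0297 (edgeR adjusted p = 5.29e-32). *Spry2* had 168, 124 and 275 CPM (1.31 ± 0.0284), *Spred1* 110, 86.4 and 143 CPM and *Spred3* 22, 10.9 and 32.5 CPM, all in the order of *Fos*. *Dusp4* departed from it, with 52.1, 111 and 77.0 CPM.

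A further list holds proteins that bind AU-rich elements in short-lived RNAs such as that of *Fos*. Of 8 tested, 7 were higher and 1, *Zfp36*, lower with PA/PC against without, where 39.6% and 42.2% of all genes were. In PA/PC-treated *Tnfaip2*-/- against WT EBs 8 were higher, against 34.2% of all genes, though *Zfp36l1* lay below WT with library totals (-0.052). In *Tnfaip2*-/- against WT EBs 2 were higher and 6 lower, against 36.8% and 37.1%. *Zfp36* was chosen for mention after its values were seen. *Hnrnpd* (AUF1) rose with PA/PC by 0.99 ± 0.0247, *Tia1* by 1.23 ± 0.0396, *Elavl1* (HuR, which stabilizes such RNAs) by 0.67 ± 0.0252 and *Zfp36l1* (which destabilizes them) by 0.92 ± 0.0399 on the log2 scale. Of the *Zfp36l1* exons 55.9% overlap another gene.

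Of 13 textbook target genes of AP-1 that were tested, 2 were higher and 10 lower in *Tnfaip2*-/- against WT EBs (36.8% and 37.1% of all genes), the direction of *Fos* there. With PA/PC against without 5 were higher and 7 lower (39.6% and 42.2%), and in PA/PC-treated *Tnfaip2*-/- against WT EBs 3 were higher and 6 lower (34.2% and 36.4%). *Vim*, which encodes the intermediate filament vimentin, had the widest range, with 205 CPM in WT, 49.9 in *Tnfaip2*-/- and 384 in PA/PC EBs and a log2 fold change with PA/PC of 3.11 ± 0.0315 (edgeR adjusted p = 3.27e-41). Cyclin D1 (*Ccnd1*) was 100, 68.5 and 136 CPM and heme oxygenase (*Hmox1*) 199, 97.1 and 182 CPM. Osteopontin (*Spp1*) was lower with PA/PC by 1.82 ± 0.0342 on the log2 scale, and so was metallothionein *Mt2*, by 0.50 ± 0.0436, though 73.5% of the *Mt2* exons overlap another gene.

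The 6 stress genes that share control with *Atf3* through ATF4 were lower in all 3 comparisons, 6 of 6 each time, against the 37.1%, 42.2% and 36.4% of all genes that were called lower. Their median log2 fold change was -0.908 in *Tnfaip2*-/- against WT EBs, -1.91 with PA/PC against without and -2.666 in PA/PC-treated *Tnfaip2*-/- against WT EBs, the same order of groups as for *Atf3*. *Atf4* itself was 458 CPM in WT, 303 in *Tnfaip2*-/- and 55.4 in PA/PC EBs. *Asns* (asparagine synthetase) was 588, 476 and 96.1 CPM, *Trib3* 102, 38.1 and 9.64 CPM and *Chac1* 51.8, 18.3 and 4.06 CPM. With PA/PC these 4 genes fell by 2.29 ± 0.0314 (*Atf4*), 2.14 ± 0.0280 (*Asns*), 1.82 ± 0.0589 (*Trib3*) and 2.00 ± 0.0824 (*Chac1*) on the log2 scale. The list was chosen with the fall of *Atf3* known.

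Heat shock genes respond to stresses that can also induce immediate early genes. Of 8 tested, 7 were higher and 1 lower in *Tnfaip2*-/- against WT EBs (36.8% and 37.1% of all genes). With PA/PC against without 2 were higher and 3 lower (39.6% and 42.2%). In PA/PC-treated *Tnfaip2*-/- against WT EBs 6 were higher and 1 lower (34.2% and 36.4%). Their summed level was 1020 to 1030 CPM in WT, 1320 to 1340 in *Tnfaip2*-/- and 1090 to 1130 in PA/PC libraries. The part of stress in the differences of the members was not tested. *Hsp90aa1* was 432, 635 and 529 CPM, *Hspa8* 124, 168 and 113 CPM, *Hsph1* 194, 218 and 238 CPM, *Dnajb1* 103, 76.9 and 124 CPM and *Hspb1* 107, 154 and 33.6 CPM in WT, *Tnfaip2*-/- and PA/PC EBs. *Dnajb1* alone of these was in the order of *Fos*. From 39.1% to 49.9% of the 51-base words of *Hspa8*, *Hsp90aa1* and *Hspb1* occur in other genes, so their counts are uncertain.

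**Figure D4:**
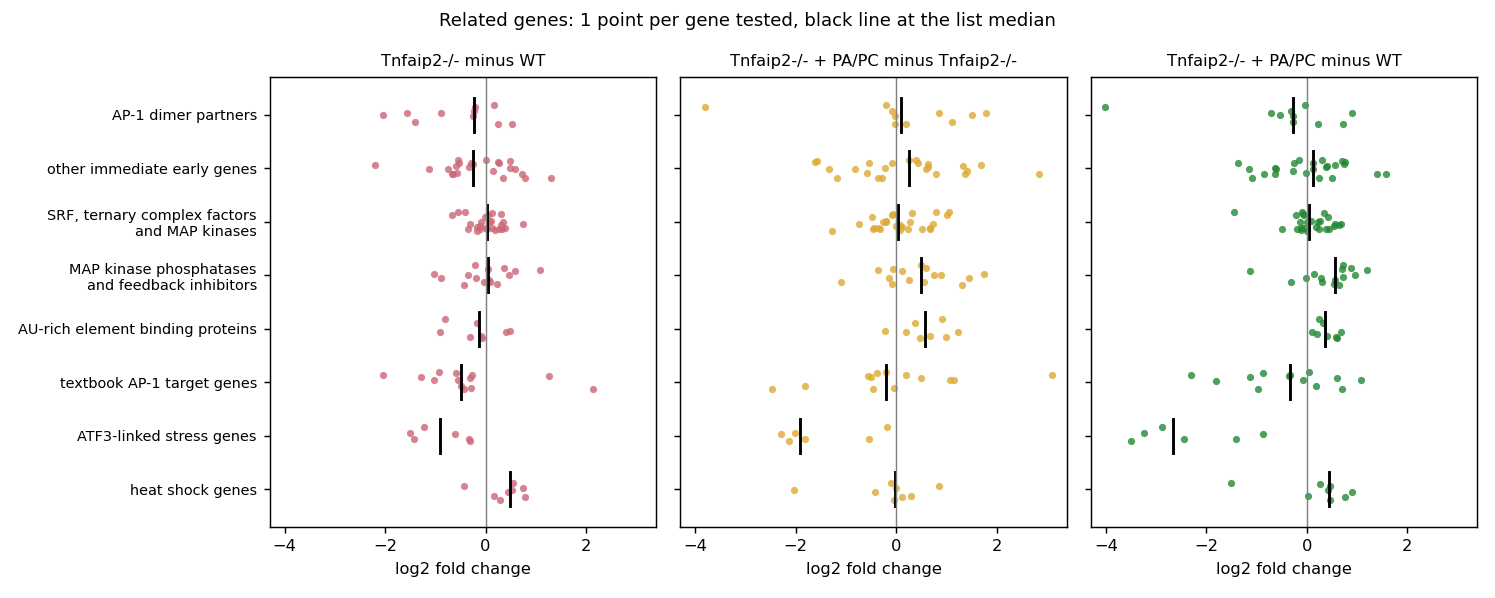
Log2 fold change (x axis) of every tested gene of the 8 lists in the 3 comparisons; each point is a gene, its height within a row has no meaning, and the black line is the median of the list. The points of the stress genes linked to *Atf3* lie left of 0 in all 3 panels, the feedback inhibitors and AU-rich element binding proteins lie mostly right of 0 with PA/PC, and the other lists spread to both sides.

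The genes most like *Fos* and *Egr1* were sought among 14175 genes by the distance between their pairs of log2 fold changes, *Tnfaip2*-/- minus WT and PA/PC-treated minus untreated *Tnfaip2*-/-, taken over 9 libraries. Both values share the *Tnfaip2*-/- libraries. Nearest to *Fos* was the homeobox gene *Evx1* (distance 0.139) with 0.585, 0.244 and 3.74 CPM in WT, *Tnfaip2*-/- and PA/PC EBs. The homeobox gene *Nkx1-2* (0.286) came next with 1.42, 0.503 and 7.63 CPM, followed by *Hes3* (0.629), the retinoid X receptor gene *Rxrg* (0.711) with 5.62, 2.29 and 23.1 CPM, and *Six6* (1.02). The other AP-1 and immediate early genes were farther from *Fos*, *Egr1* at rank 127, *Fosb* at 141, *Junb* at 258 and *Atf3* at 13079. Nearest to *Egr1* were *Ccdc187* (0.0925), the GABA receptor gene *Gabra3* (0.258), the POU factor gene *Pou3f1* (0.289) with 23.7, 18.3 and 76.0 CPM, *Cnn1* (0.363) and the DNA methyltransferase gene *Dnmt3b* (0.378) with 218, 150 and 619 CPM. *Junb* was at rank 39 for *Egr1*. *Evx1*, *Hes3* and *Ccdc187* had a mean below 1 CPM in both groups without PA/PC, and *Nkx1-2*, *Six6* and *Gabra3* in *Tnfaip2*-/- EBs, so their distances carry a wide counting error.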

How the data were processed

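RNA of 9 EB libraries was sequenced with unstranded TruSeq RNA v2 libraries in 51-cycle single-end runs. The authors deposited raw counts per Ensembl gene; per the labels, reads were extracted with bcl2fastq 2.20.0.422, mapped to GRCm38 with STAR 2.7.2b and counted with featureCounts 1.6.5, leaving out multi-mapping and multi-overlapping reads. The study's methods describe an earlier pipeline for a first comparison of *Tnfaip2*-/- and WT EBs, so the groups could have been processed differently; all 9 columns lie in 1 table over the same genes. Groups and replicate numbers come from the sample titles.

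GENCODE M21 gave symbols and positions by Ensembl ID (241 of 55471 IDs unmatched). Exons overlapped by other genes and 51-base words shared with other genes were computed for each named gene. The main test was edgeR's quasi-likelihood test (edgeR 4.0.16, R 4.3.3) after TMM scaling and filterByExpr, adjusted by Benjamini-Hochberg over all genes tested, each comparison on its own 6 libraries without covariates. Calls needed an adjusted p under 0.05; a second rule tested a minimum fold of 2. CPM used library totals. SEs derive from the F statistic. The test was checked on simulated counts. Replicate pairs differed by more than sampling noise in a chi-square test of their counts, with 1.22 to 3.45 per degree of freedom. The spread between replicates beyond counting that edgeR estimated was small, a CV of 2.09%, 2.32% and 2.65% in the 3 comparisons.

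The members and lists were chosen with earlier results of these data known. Named were all members, of each list at most 4 genes with the smallest adjusted p with PA/PC against without and at most 2 in *Tnfaip2*-/- against WT EBs, if their mean reached 1 CPM, and the 5 genes nearest to *Fos* and to *Egr1*. One list gene that this rule names is not reported here. Alternatives were DESeq2 1.42.0, RLE factors, library totals, no filter, 1 fit of all groups, a block for the replicate number, and each library left out in turn.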

Additional observations from a re-analysis of the deposited data

How the results depend on the processing

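Over the alternatives without the minimum fold, 321 of 324 member values kept direction and call, and 0 reversed. The 3 exceptions are *Jun* (0.013) and *Jund* (0.086) by library totals and *Jun* without PA/PC replicate 2 (0.141), all in PA/PC-treated *Tnfaip2*-/- against WT EBs; the cause was not tested. Without the filter on low counts 9 members were called lower in *Tnfaip2*-/- against WT EBs, since *Fosl1* was then tested too; DESeq2, which also tested it, called 8.

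Of the other named genes' values, 6 reversed, all in PA/PC-treated *Tnfaip2*-/- against WT EBs: by library totals *Csrnp1* (-0.045), *Elk1* (-0.153), *Hmox1* (-0.129), *Hspa8* (-0.133) and *Zfp36l1* (-0.052), and without WT replicate 1 *Elk1* (-0.012; -0.012 to 0.032 over the libraries left out). Library totals moved calls over all genes from 6801 higher and 7246 lower to 5317 and 8684 with PA/PC against without, and from 5693 and 6067 to 3616 and 8341 in PA/PC-treated *Tnfaip2*-/- against WT EBs.

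The minimum fold of 2 called 1587, 3554 and 1335 genes in the 3 comparisons in place of 12813, 14047 and 11760. Of list genes it called 11, 27 and 15 in place of 96, 95 and 89, and of members 1, 6 and 4 in place of 8, 9 and 9.

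Same-numbered replicates did not deviate together (correlations of -0.102 to 0.134), so the numbers were not taken as pairs. With the replicate block 12587, 13822 and 12223 genes and 8, 9 and 9 members were called.

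Leaving out 1 library gave 8 members each time in the first comparison, 9 in the second and 8 to 9 in the third. Depth limits *Fosl1* and, without PA/PC, *Fosb*. Samples of 3 per group measure the spread between these cultures only.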
